A study of Mus musculus with 28 samples.

Results

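Long noncoding RNA genes were followed in murine bone marrow-derived macrophages (BMDMs) treated with von Willebrand factor (VWF), bacterial lipopolysaccharide (LPS) or buffer. The genes were chosen by annotation and level. Each carried the GENCODE gene type lincRNA (a transcript between coding genes) or antisense (a transcript on the strand opposite another gene), and each reached 5 CPM (the count scaled by the culture's total) in at least 4 of the 28 cultures. Of 54532 genes counted, 8390 had these types, 4181 of those had at least 1 count, and 107 met the level. They comprised 68 lincRNA and 39 antisense genes. The level that chose a gene can be reached through the treatment in which the gene is high: 16 of the 107 reached 5 CPM in cultures of a single group, and 25 reached it in no control culture. Counts over the 107 genes are therefore descriptions, and for a gene that met the level in 1 group only, a difference from that group is given without a p-value. Gm26674, Mir155hg and Gm13822 met it in treated groups only, and Gm5086 and Lockd in controls only. For these, a difference between a group that met it and one that did not is also given without a p-value. Gm45752 would have missed the level without its 16 h controls, and Mir17hg without its 3.5 h controls. 2810455O05Rik reached it in just 4 cultures, 3.5 h controls among them. Differences from those controls are likewise given without a p-value. Just inside the limit were 2810455O05Rik, Gm49797 and Gm26740, with fourth-highest values of 5.08, 5.09 and 5.15 CPM, and just outside were Gm16712, Gm36738 and 1810034E14Rik, with 4.93, 4.85 and 4.79 CPM.

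The cells were grown for 7 days from the marrow of C57/B6JB mice aged 8 to 12 weeks with M-CSF, the growth factor that drives macrophage maturation. After a night in serum-containing medium with M-CSF they were washed and given fresh medium with calcium chloride in all groups. Controls received buffer (PBS) alone, VWF cultures received VWF purified from human plasma at 10 µg/ml, and LPS cultures received 100 ng/ml. RNA was taken after 3.5 h or 16 h. At each time there were 5 control, 5 VWF and 4 LPS cultures. The labels call them biological replicates, but no source says that they came from separate mice, so the p-values measure the spread between cultures, which may be technical. All carried the macrophage markers Adgre1, Csf1r, Itgam, Cd68, Mertk, Fcgr1 and Lyz2.

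Long noncoding RNAs are transcribed and usually capped, spliced and polyadenylated like messenger RNAs but are not annotated as coding for protein. Some act in the nucleus, as scaffolds of nuclear bodies or at the gene beside them, and others serve mainly as precursors from which microRNAs or small nucleolar RNAs are cut. In macrophages, engagement of Toll-like receptors, of which the LPS receptor TLR4 is the best known, is known to switch on a set of such genes together with inflammatory cytokine genes. Their levels are usually low, and so it was here: the median level of the 107 genes was 7.57 TPM (a level per exon length), against 17.1 TPM for the 10033 protein-coding genes that met the same limit. Together the genes took 0.206 to 0.418% of a culture's counts, and Neat1 and AW112010 alone held 20.8% and 15% of these.

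Totals ran from 41131209 to 77699206 counts per culture. CPM values from here on are TMM-scaled (edgeR's correction for composition). Control replicate 5 at 16 h stood apart. For 65 of the genes a control culture at 16 h reached 5 CPM, and for 31 of these the control replicate 5 lay beyond Dixon's limit for a value far from its group, 24 times above and 7 times below the other 4. No other culture did so for more than 8 genes: VWF replicate 4 at 16 h was far above its group for 8 and LPS replicate 4 at 16 h for 3. Gm26917 showed all of them, with 444 CPM in control replicate 5 against 52.4 to 74.8 in the other controls, 195 CPM in VWF replicate 4 against 61.2 to 81.4, and 470 CPM in LPS replicate 4 against 64.1 to 123. The summed macrophage markers ranged from 4950 to 15800 CPM in the 16 h controls and from 18200 to 25600 CPM with VWF at 16 h. The part of these cultures in the results was not tested, and for some genes the values at 16 h are also given without control replicate 5. Others, among them 4930430E12Rik, Gm30329 and F630028O10Rik, for which that culture was low, are given with it only.

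**Figure D1:**
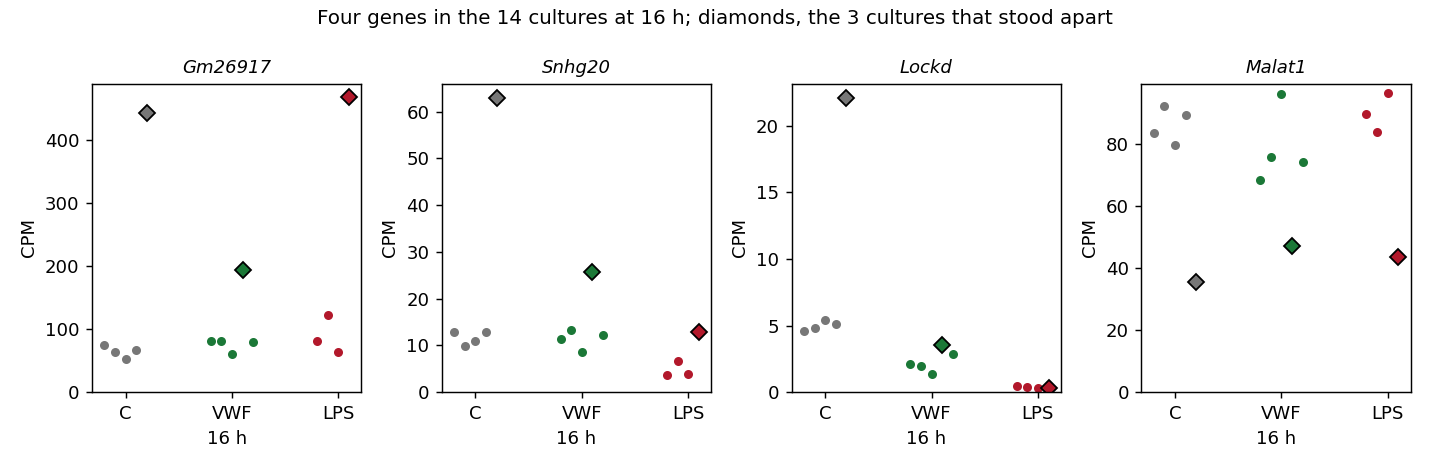
Levels (CPM, linear axis from 0) of Gm26917, Snhg20, Lockd and Malat1 in the control (C), VWF and LPS cultures at 16 h, 1 point per culture, with diamonds for control replicate 5, VWF replicate 4 and LPS replicate 4. Control replicate 5 lies far above the other controls for Gm26917 (444 CPM), Snhg20 (63.0 CPM) and Lockd (22.1 CPM) and below them for Malat1 (35.4 CPM).

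Each comparison was fitted over all 10317 genes that met the limit, with edgeR's quasi-likelihood test, and a gene was called at a Benjamini-Hochberg adjusted p below 0.05 with a log2 fold change beyond 1 in size. With VWF at 3.5 h, 16 of the 107 genes rose and 16 fell (15% each, against 8.74% and 5.89% of all genes tested). With LPS at 3.5 h, 28 rose and 24 fell, where 12.6% and 13.1% of all genes did. Set against LPS directly at that time, VWF cultures were higher for 11 genes and lower for 18 (5.16% and 6.45% of all genes). VWF at 16 h raised 16 and lowered 10 (4.56% and 4.24% of all genes), and LPS raised 32 and lowered 20 (14.1% and 13.9%). The VWF cultures of 16 h exceeded LPS cultures for 16 genes and lay below them for 32 (12.4% and 13.4%). Without control replicate 5, VWF called 29 genes and LPS 55 at 16 h (9.11% and 28.6% of all genes), in place of 26 and 52. VWF and LPS were compared with the same controls, so their counts are not independent.

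The balance of rises and falls depended on how cultures were scaled. With library size alone, the median log2 fold change of all genes moved by -0.59 for LPS at 3.5 h, and the split of the long noncoding genes became 20 higher and 42 lower, where 8% and 30.7% of all genes were called. For LPS at 16 h it became 25 and 35 (8.45% and 30.9% of all genes), for VWF at 3.5 h 15 and 24 (6.95% and 9.14%), and for VWF at 16 h 13 and 12 (4.12% and 4.89%). The direct comparison of VWF with LPS changed to 16 higher and 9 lower at 3.5 h (13.3% and 3.91%) and to 31 and 19 at 16 h (25.6% and 7.75%). None of the 134 called results of the named genes changed direction under any alternative. The median log2 fold change of the 107 genes lay between -0.17 and 0.05 in these 6 comparisons, and that of all genes tested between -0.03 and 0.02.

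**Figure D2:**
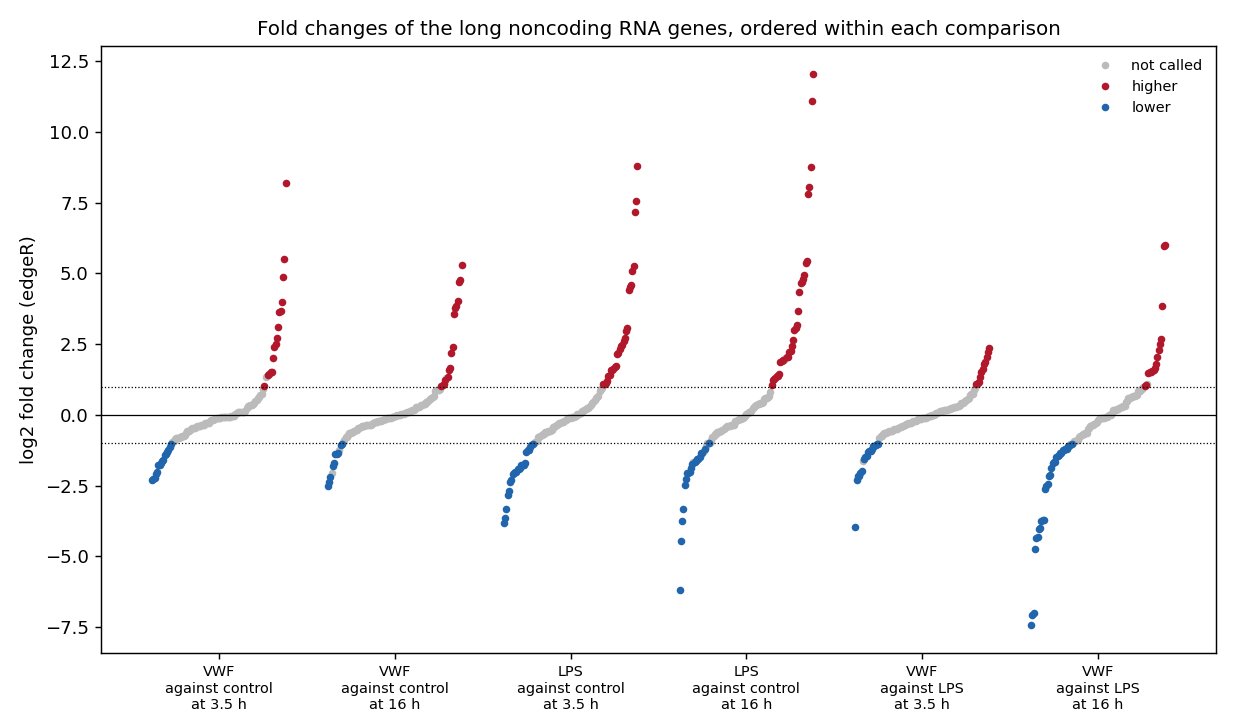
Log2 fold change (edgeR) of each of the 107 genes in the 6 comparisons of treatments, ordered within a comparison, with called rises in red, called falls in blue and dotted lines at 1 and -1. The rises extend farther than the falls in the comparisons with controls, and the falls extend farther at 16 h for VWF against LPS, where 32 genes were lower.

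Among the long noncoding RNAs known from immune responses, AW112010 changed with both treatments at both times. It was described as an interferon- and Toll-like-receptor-induced transcript from which a small protein is translated. In the RefSeq promoter table (GRCm38.p6) its start carries a kappaB motif, the type of sequence bound by NF-kappaB, found on either strand by its usual degenerate letters in 4.51% of all 32851 promoter entries. The RefSeq start lies inside the longer GENCODE gene (chromosome 19, 11047612 to 11055808, minus strand). The 300 bases at chr19:11050517-11050816, minus strand, are shown 5′ to 3′ with the motif in capitals.
AW112010: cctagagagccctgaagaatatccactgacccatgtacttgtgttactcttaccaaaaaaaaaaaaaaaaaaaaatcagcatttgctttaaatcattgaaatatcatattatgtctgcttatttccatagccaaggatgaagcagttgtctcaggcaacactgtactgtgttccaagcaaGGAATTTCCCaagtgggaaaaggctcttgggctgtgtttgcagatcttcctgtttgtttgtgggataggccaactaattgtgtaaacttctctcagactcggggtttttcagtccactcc

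AW112010 stood at 6.42, 7.11, 5.71, 3.81 and 4.78 CPM in the 3.5 h controls and at 158, 269, 278, 369 and 171 CPM with VWF. With LPS it reached 1070, 834, 1108 and 1175 CPM. The 3 groups did not overlap, and VWF lay between control and LPS. Its log2 fold change was 5.50 ± 0.28 (SE) with VWF (adjusted p = 3.386e-08), 7.56 ± 0.23 with LPS (adjusted p = 3.893e-10) and -2.07 ± 0.23 for VWF against LPS (adjusted p = 3.617e-05). At 16 h the controls held 4.01 to 7.07 CPM, VWF cultures 128, 142, 138, 193 and 80.4 CPM, and LPS cultures 1958, 2396, 1607 and 3126 CPM. The gap between VWF and LPS was -4.05 ± 0.29 on the log2 scale by then (adjusted p = 1.689e-06). The LPS response grew with time, with an interaction of 1.2 ± 0.30 (adjusted p = 0.003041), whereas for VWF the interaction was -0.79 ± 0.35 (adjusted p = 0.08931). Per exon length AW112010 moved from 22.6 TPM in 3.5 h controls to 5538 TPM in LPS cultures at 16 h.

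Ptgs2os2, known as lincRNA-Cox2, is transcribed beside Ptgs2, the gene of the prostaglandin-forming enzyme COX-2, and is known to act on immune gene expression in macrophages. Its RefSeq promoter held an interferon-stimulated response element motif (GAAA and GAAA with 2 bases between them, either strand), which 3.44% of all promoter entries held. It is given here from chr1:150164899-150165198 of GRCm38.p6, minus strand, with the motif in capitals. The same motif stood in the promoter of F630028O10Rik, the miR-223 host described later, at chrX:96239676-96239975, plus strand, so that a gene that rose and a gene that fell with LPS shared these letters. Of the 58 long noncoding genes matched in the table, 6 held this motif, 6 held the AP-1 motif TGANTCA, which 7.81% of all entries held, and AW112010 alone held the kappaB motif.
Ptgs2os2: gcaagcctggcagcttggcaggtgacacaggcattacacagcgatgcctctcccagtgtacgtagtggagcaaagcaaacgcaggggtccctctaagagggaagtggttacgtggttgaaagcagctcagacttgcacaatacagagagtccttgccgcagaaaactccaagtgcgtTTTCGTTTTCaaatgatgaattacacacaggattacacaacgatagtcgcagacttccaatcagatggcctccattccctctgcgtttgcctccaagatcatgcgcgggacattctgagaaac
F630028O10Rik: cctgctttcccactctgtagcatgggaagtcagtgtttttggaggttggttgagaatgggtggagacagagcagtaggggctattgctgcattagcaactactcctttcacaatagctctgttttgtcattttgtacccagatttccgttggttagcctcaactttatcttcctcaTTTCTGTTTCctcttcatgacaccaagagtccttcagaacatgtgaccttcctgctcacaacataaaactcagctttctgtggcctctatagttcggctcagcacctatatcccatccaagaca

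Ptgs2os2 was near the limit of detection in controls, at 0.0302 to 0.346 CPM at 3.5 h. VWF brought it to 1.60, 1.84, 1.73, 3.06 and 2.04 CPM and LPS to 5.07, 5.76, 5.69 and 5.81 CPM, and no groups overlapped. It rose by 3.67 ± 0.41 on the log2 scale with VWF (adjusted p = 1.942e-05) and by 5.10 ± 0.39 with LPS (adjusted p = 5.03e-07). At 16 h VWF cultures were back at 0.374 to 0.720 CPM beside controls at 0 to 0.461 CPM (log2 fold change 0.67 ± 0.57, adjusted p = 0.4541), while LPS cultures stood at 13.9, 14.5, 10.8 and 16.0 CPM. The VWF response changed with time by -2.99 ± 0.71 (adjusted p = 0.00261). Ptgs2 itself, 64917 bp away between starts, went from 23.2 CPM in 3.5 h controls to 237 with VWF and 446 with LPS, and at 16 h from 4.02 in controls to 5.09 with VWF and 426 with LPS.

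Mir155hg, the host of miR-155, a microRNA known to promote inflammatory macrophage responses, was near silent in controls. At 3.5 h the controls held 0 to 0.190 CPM (32 counts over the 5 cultures), VWF cultures 45.3, 39.1, 36.2, 18.7 and 16.8 CPM, and LPS cultures 46.4, 70.7, 57.8 and 18.2 CPM. It met the level through treated cultures only. Its differences from controls, 8.20 ± 0.49 with VWF and 8.82 ± 0.52 with LPS on the log2 scale, are therefore descriptions. VWF and LPS cultures overlapped (-0.63 ± 0.38, adjusted p = 0.1895). At 16 h LPS cultures kept 19.9, 20.7, 17.9 and 11.5 CPM. VWF cultures held 0.0360 to 0.237 CPM, 41 counts in all, beside 2 counts over the 5 controls, a difference the test called (adjusted p = 0.004348). The ratio of these counts per effective library size was 21.2 (exact 95% binomial interval 5.51 to 181, counting error only). VWF and LPS differed by -7.09 ± 0.38 at 16 h. The interaction of VWF with time was -4.17 ± 2.33 in edgeR and -3.89 in DESeq2. It sets a group that met the level against groups that did not, so it is a description too.

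**Figure D3:**
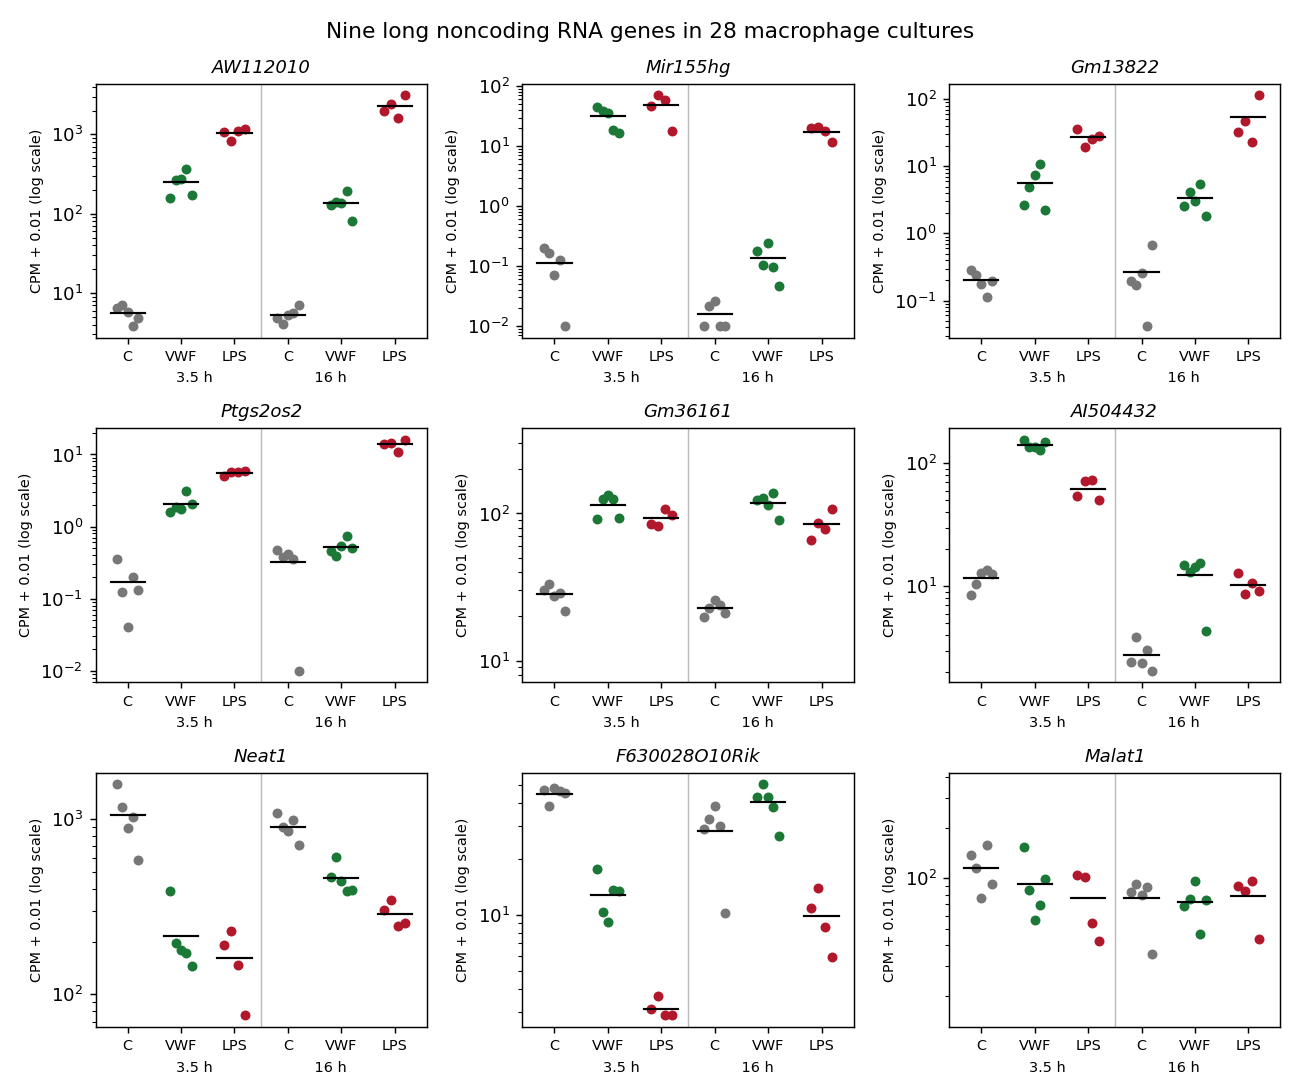
Levels of 9 genes in the control (C, grey), VWF (green) and LPS (red) cultures at 3.5 h (left of each panel) and 16 h (right), as CPM plus 0.01 on a log axis, with 1 point per culture and a bar at the group mean. AW112010 and Gm13822 lay between control and LPS in VWF cultures at both times, Ptgs2os2 did so at 3.5 h, Mir155hg overlapped between VWF and LPS at 3.5 h, the VWF cultures of both were far below LPS at 16 h, and Neat1 and F630028O10Rik were lower with both treatments at 3.5 h.

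MicroRNA products of hosts called in at least 1 treatment comparison are given from RefSeq (GRCm38.p6), with the seed, bases 2 to 8, in capitals. For Mir17hg, which has 11 mature products, a single arm of each microRNA is printed. They show which target-pairing sequences lay in these transcripts. The libraries measured the host RNA, and mature microRNAs were not measured.
mmu-miR-155-5p: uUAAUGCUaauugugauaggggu
mmu-miR-155-3p: cUCCUACCuguuagcauuaac
mmu-miR-223-5p: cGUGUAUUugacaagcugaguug
mmu-miR-223-3p: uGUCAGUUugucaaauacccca
mmu-miR-6516-5p: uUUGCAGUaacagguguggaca
mmu-miR-6516-3p: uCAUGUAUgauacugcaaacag
mmu-miR-17-5p: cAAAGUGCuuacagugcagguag
mmu-miR-20a-5p: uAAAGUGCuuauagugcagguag
mmu-miR-18a-5p: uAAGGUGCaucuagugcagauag
mmu-miR-19a-3p: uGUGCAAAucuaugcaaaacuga
mmu-miR-19b-3p: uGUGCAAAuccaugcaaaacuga
mmu-miR-92a-3p: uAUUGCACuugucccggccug
The Mir17hg products miR-17-5p and miR-20a-5p share a seed, as do miR-19a-3p and miR-19b-3p, and no seed was shared between different hosts.

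F630028O10Rik covers miR-223, a microRNA abundant in myeloid cells and known to restrain inflammatory signalling. It fell with both treatments at 3.5 h. Controls held 46.6, 38.2, 47.7, 46.2 and 44.9 CPM, VWF cultures 17.5, 10.3, 9.10, 13.6 and 13.3 CPM, and LPS cultures 3.08, 3.63, 2.87 and 2.88 CPM, with no overlap between groups. The log2 fold changes were -1.79 ± 0.16 with VWF (adjusted p = 3.362e-06) and -3.83 ± 0.12 with LPS (adjusted p = 4.283e-10). At 16 h VWF cultures, at 43.0, 50.2, 43.0, 38.1 and 26.3 CPM, overlapped the controls, at 28.9, 32.6, 38.3, 30.0 and 10.2 CPM, and the difference of 0.53 ± 0.30 did not pass the test (adjusted p = 0.2473). LPS cultures, between 5.93 and 14 CPM, were lower (-1.49 ± 0.38, adjusted p = 0.007689) and overlapped control replicate 5 only. The change of the response with time passed the test for VWF (2.34 ± 0.36, adjusted p = 3.754e-05) and for LPS (2.36 ± 0.40, adjusted p = 0.0001113).

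Mir17hg, host of the proliferation-linked miR-17 to miR-92 cluster, stood at 3.98 to 8.15 CPM in 3.5 h controls and was called in neither treatment at that time. At 16 h LPS cultures held 0.545, 0.906, 0.487 and 1.52 CPM against 2.03 to 3.45 CPM in controls (-1.56 ± 0.37, adjusted p = 0.00549), and VWF left it at 1.46 to 3.47 CPM (-0.11 ± 0.24, adjusted p = 0.8012). Mir142hg, whose microRNA marks blood cells, was called in no comparison. Its 16 h controls ranged from 5.25 to 30.9 CPM, with control replicate 5 the highest. Its fold changes at 16 h were -0.52 ± 0.52 with VWF and -0.15 ± 0.63 with LPS, and 0.22 and 0.61 without that culture. Snhg20, which holds miR-6516 and a small nucleolar RNA, fell with VWF at 3.5 h (-1.02 ± 0.28, adjusted p = 0.01175) and with LPS (-1.23 ± 0.34, adjusted p = 0.007373). The VWF call was lost without any of control replicates 1 to 3 or VWF replicate 5, at -0.99 to -0.82. Of the snoRNA hosts Snhg12, Snhg20, Snhg6 and Epb41l4aos, whose introns release guides for ribosomal RNA modification, none was called at 16 h for either treatment against control. Without LPS replicate 4, Snhg20 and Epb41l4aos were called lower with LPS, at -2.21 and -1.58. Without control replicate 5 they were at -0.76 and -0.39, not called, and without all 3 apart cultures Snhg20 was called at -1.27 and Epb41l4aos was under the fold limit at -0.95. The value of Snhg20 with VWF at 16 h was -0.59 ± 0.55, and 0.31 without control replicate 5. Snhg12 fell with LPS at 3.5 h (-1.31 ± 0.16, adjusted p = 3.186e-05).

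The remaining immune-response genes of the list were Gm14005 and Pvt1. Gm14005, known as Morrbid and as a regulator of the lifespan of short-lived myeloid cells, rose from 6.28 to 13.6 CPM in 3.5 h controls to 22.4 to 32.8 CPM with LPS (1.57 ± 0.20, adjusted p = 3.849e-05). With VWF its fold change was 1.03 ± 0.22 at 3.5 h, close to the limit and under it, at 0.90 to 0.96, without control replicate 4, VWF replicate 3 or VWF replicate 4, and 1.34 ± 0.16 at 16 h (adjusted p = 0.0001394). Pvt1, transcribed next to the growth regulator Myc, was lower with LPS at 3.5 h (-1.25 ± 0.21, adjusted p = 0.0002649) and at 16 h (-1.72 ± 0.23, adjusted p = 0.0001319). With VWF at 3.5 h it stood at 2.38 to 3.00 CPM, below every control, at 4.08 to 6.56 CPM, but was not called. With VWF at 16 h its difference from controls was 0.05 ± 0.15 (adjusted p = 0.8478). Myc lay 52595 bp away between starts and was itself lower with LPS at both times (-3.20 ± 0.23 and -2.62 ± 0.24) and with VWF at 3.5 h (-2.17 ± 0.13). Of 18 listed genes, 8 met the level, and Mir22hg among them has another gene type and is no member. Over the other 7, 4 rose and 1 fell with VWF at 3.5 h (8.74% and 5.89% of all genes), and 3 rose at 16 h (4.56%). With LPS 4 rose and 2 fell at each time (12.6% and 13.1% of all genes at 3.5 h, 14.1% and 13.9% at 16 h). The median log2 fold changes of the list were 1.03 and 0.67 with VWF and 1.57 and 2.23 with LPS at the respective times. Ptgs2os2 met the level with LPS at 16 h only, and Mir155hg through treated groups only. The list was also chosen with earlier results of these data known. Its counts and medians are therefore descriptions.

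Neat1, the scaffold of nuclear paraspeckles, and Malat1, a resident of nuclear speckles, lie next to each other on chromosome 19, at 5824708 to 5845478 and 5795690 to 5802672. Over all 28 cultures together Neat1 took the most counts of the 107 genes, but AW112010 exceeded it in the summed counts of both LPS groups and of VWF at 3.5 h. It stood at 1571, 1158, 881, 1028 and 585 CPM in 3.5 h controls, at 387, 195, 180, 172 and 144 CPM with VWF and at 190, 229, 148 and 76.3 CPM with LPS. No treated culture reached the lowest control. It fell by 2.26 ± 0.31 on the log2 scale with VWF (adjusted p = 0.0001033) and by 2.69 ± 0.35 with LPS (adjusted p = 4.376e-05). At 16 h VWF cultures, at 464, 607, 440, 386 and 392 CPM, were still below every control, at 711 to 1070 CPM, with a fold change of -0.97 ± 0.15 that missed the fold limit (adjusted p = 0.0008471). Without control replicate 5 or VWF replicate 2 it was called, at -1.04 and -1.09. LPS cultures at 246 to 345 CPM were called (-1.63 ± 0.16, adjusted p = 1.816e-05). The change of the response with time passed the test for VWF (1.30 ± 0.36, adjusted p = 0.007598) and for LPS (1.08 ± 0.38, adjusted p = 0.02734). The LPS interaction fell below the fold limit or lost its adjusted p in 4 of the fits that left out a culture, at 0.85 to 1.04. Reads over the gene's 20771 exonic bases do not separate the short and long Neat1 transcripts.

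Malat1 ranged from 76.8 to 158 CPM in 3.5 h controls, from 56.8 to 152 CPM with VWF and from 42.7 to 105 CPM with LPS. These overlap, and the fold changes of -0.30 ± 0.27 and -0.60 ± 0.29 did not pass the test (adjusted p = 0.4193 and 0.08577). With library size alone the LPS value was -1.18 and was called. Tug1, 2900097C17Rik (Norad, which binds Pumilio proteins) and Xist, the RNA that silences an X chromosome, were called in none of the 6 treatment comparisons under TMM scaling. With library size alone Tug1 was called with LPS at 3.5 h (-1.03) and Xist with LPS at 16 h (-1.14). Tug1 stood at 36.5 CPM with LPS at 3.5 h and 52.2 CPM at 16 h, against 49.9 and 34.1 CPM in controls, so that its LPS response changed with time by 1.10 ± 0.18 (adjusted p = 7.399e-05).

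**Figure D4:**
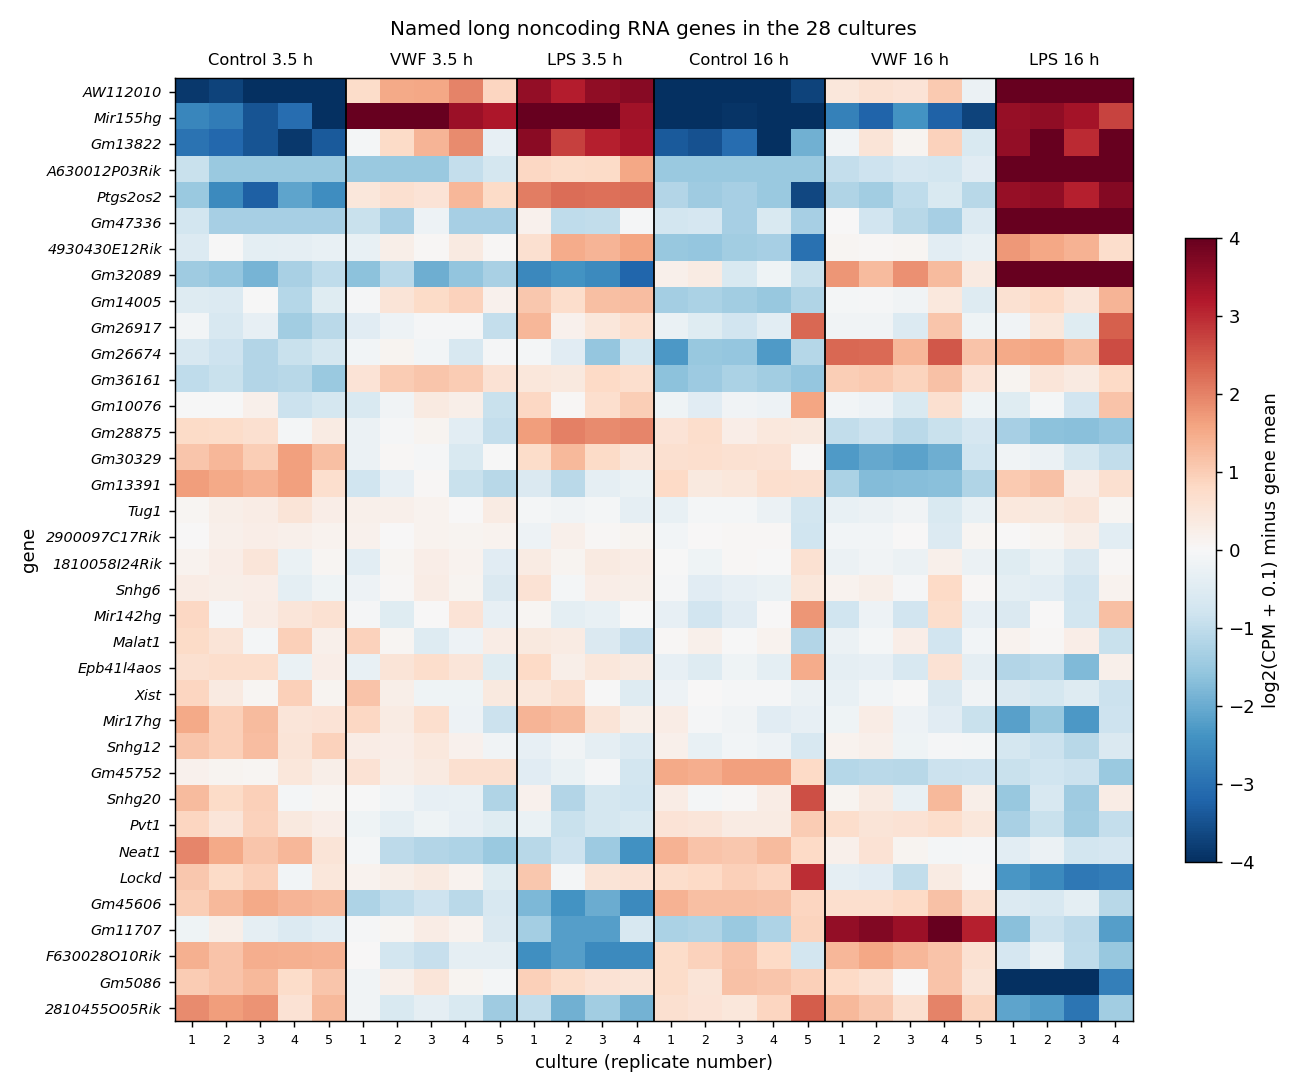
Heat map of log2(CPM + 0.1) minus the gene's mean over the 28 cultures, with named genes in rows, ordered by their summed LPS level, and cultures in columns by group and replicate number. AW112010, Mir155hg and Gm13822 lead the genes high in LPS, Gm11707 is darkest red in VWF cultures at 16 h, and control replicate 5 at 16 h differs in colour from its group for Gm26917, Snhg20 and Lockd.

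Genes that changed with VWF at 16 h formed a smaller set. Gm11707 (chromosome 11, 106972058 to 106973090) was at 0.0666 to 0.749 CPM in 16 h controls, with control replicate 5 the highest, and at 5.13, 5.90, 4.81, 8.13 and 3.88 CPM with VWF. LPS cultures held 0 to 0.158 CPM. The gene met the level through VWF cultures at 16 h only, so its differences from them are descriptions. The fold change with VWF was 4.75 ± 0.65, and 5.93 without control replicate 5. It exceeded LPS by 6.0 ± 0.53 on the log2 scale. At 3.5 h its difference with VWF was 0.32 ± 0.30 (adjusted p = 0.4346), and its interaction with time, 4.45 ± 0.70, was the largest for VWF among the long noncoding genes called (5.65 without control replicate 5). Its function is not known from the annotation. Gm26674, antisense to Sash1, rose at 16 h with VWF, to 16.4, 16.0, 8.21, 18.7 and 7.15 CPM, and with LPS, to 9.49, 9.81, 7.92 and 20.1 CPM, from 0.580 to 1.42 CPM in controls. It met the level through these treated groups only, so both differences (3.85 ± 0.37 and 3.68 ± 0.39) are descriptions. At 3.5 h the differences were 0.74 ± 0.17 and 0.26 ± 0.27, neither called. Sash1 itself rose less at 16 h, by 1.07 ± 0.17 with VWF and 1.37 ± 0.20 with LPS.

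Among the falls with VWF at 16 h, Gm45752 went from 5.42 to 9.91 CPM in controls to 1.34 to 1.68 CPM (-2.50 ± 0.19). With LPS it stood at 1.03 to 1.75 CPM (-2.47 ± 0.24). The gene would have missed the level without these controls, so both differences are descriptions. The difference between VWF and LPS was -0.01 ± 0.22 (adjusted p = 0.9635). Gm30329 fell from 3.64 to 5.65 CPM to 0.647 to 1.98 CPM (-2.36 ± 0.32, adjusted p = 0.0003093) and was lower than with LPS (-1.34 ± 0.38, adjusted p = 0.01157, and -0.84 and not called with library size alone). Gm13391 met the level in 3.5 h controls only. Its values at that time were -2.02 ± 0.26 with VWF and -2.02 ± 0.25 with LPS, and it was lower with VWF at 16 h (-2.21 ± 0.19, adjusted p = 1.345e-05). At 16 h it stood at 2.90 to 5.34 CPM with LPS beside controls at 3.09 to 4.11 CPM (0.26 ± 0.21, adjusted p = 0.334), with an interaction with time of 2.29 ± 0.33. At 3.5 h the largest falls with VWF among genes whose groups did not overlap were, with Neat1, Gm45606, from 5.59 to 8.02 CPM to 1.13 to 1.73 CPM (-2.29 ± 0.16, adjusted p = 3.008e-07), and 2810455O05Rik, from 1.85 to 4.76 CPM to 0.392 to 1.09 CPM (-2.22 ± 0.31). Neither was called at 16 h with VWF (-0.37 ± 0.15 and 0.08 ± 0.44, the latter 0.66 without control replicate 5). The interaction of Gm45606 with time passed the test (1.94 ± 0.21, adjusted p = 5.747e-07), and that of 2810455O05Rik was 2.31 ± 0.57. Because 2810455O05Rik met the level in just 4 cultures, 3.5 h controls among them, its fall and its interaction are descriptions.

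Several genes were high with LPS at 16 h and low in the other groups. A630012P03Rik, Gm47336 and Gm32089 met the level through LPS cultures at 16 h only, so that their differences from this group are descriptions. A630012P03Rik had no count in any 16 h control, 23 counts over the 5 VWF cultures and 9.60, 8.78, 8.29 and 10.9 CPM with LPS. Against a floor of 3 counts in each control culture this was at least 204-fold higher with LPS and at least 1.57-fold higher with VWF. Gm47336 stood at 11.8, 11.3, 7.07 and 12.0 CPM with LPS, at 0 to 0.0633 CPM in controls and at 0 to 0.154 CPM with VWF (VWF against LPS -7.44 ± 0.53). Gm32089 reached 39.5, 31.4, 30.6 and 18.2 CPM with LPS from 0.394 to 1.05 CPM in controls (5.37 ± 0.34) and 1.06 to 3.13 CPM with VWF (1.64 ± 0.36, adjusted p = 0.006016). At 3.5 h it was near the floor, with 0 to 3 counts per LPS culture beside 10 to 21 per control (-2.31 ± 0.58, adjusted p = 0.004308). Its interaction with time, 7.71 ± 0.59, rests partly on these counts and was the largest for LPS among the long noncoding genes called. The antisense gene 4930430E12Rik rose with LPS at both times (1.64 ± 0.18 and 3.07 ± 0.34) and with VWF at 16 h (1.58 ± 0.27, adjusted p = 0.001546), and it was lower with VWF than with LPS at both (-1.21 ± 0.19 and -1.48 ± 0.20). Those last values were -0.86 and -0.99 with library size alone and then not called.

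In the other direction, Gm5086 and Lockd met the level in controls only, so their differences from controls are descriptions. Gm5086 was at 3.17 to 5.06 CPM in 16 h controls, at 2.17 to 4.87 CPM with VWF and at 0, 0, 0 and 0.244 CPM with LPS. The fitted fall with LPS was -6.20 ± 0.90, and the difference of VWF from control, -0.26 ± 0.23, was not called. Lockd, a transcript whose locus is known to enhance the neighbouring cell-cycle inhibitor Cdkn1b, was at 4.61, 4.84, 5.44, 5.11 and 22.1 CPM in controls and at 0.477, 0.394, 0.292 and 0.325 CPM with LPS. Its fall was -4.48 ± 0.64, and -3.71 without the high control replicate 5. With VWF it stood at 1.36 to 3.53 CPM (-1.80 ± 0.50, and -1.06 without control replicate 5), which is a description as well. Without VWF replicate 1, 2 or 3 this difference did not meet the limits of a call. Cdkn1b stayed under the fold limit in both treatments against control at 16 h (-0.59 ± 0.08 with VWF and 0.56 ± 0.10 with LPS, adjusted p = 0.0002932 and 0.001085). Gm28875 reversed with time under LPS, from 33.1 to 41.4 CPM against 9.59 to 17.3 CPM in controls at 3.5 h to 3.14 to 4.00 CPM against 12.3 to 16.6 CPM at 16 h. The interaction was -3.41 ± 0.21 (adjusted p = 2.054e-09). With library size alone the rise at 3.5 h was 0.81 and not called. With VWF it was lower at 16 h (-1.37 ± 0.12, adjusted p = 1.197e-05).

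Some genes stood higher with VWF than with LPS. AI504432 (chromosome 3, 107039504 to 107054347), picked after its values were seen, reached 156, 135, 135, 128 and 150 CPM with VWF at 3.5 h, above every LPS culture, at 54.5, 71.5, 72.7 and 50.4 CPM, and above controls at 8.55 to 13.6 CPM. The difference from LPS was 1.17 ± 0.13 (adjusted p = 2.535e-05). By 16 h VWF cultures at 4.31 to 15.3 CPM and LPS cultures at 8.66 to 12.7 CPM overlapped (0.28 ± 0.32, adjusted p = 0.484). The overlap rested on VWF replicate 5, the lowest, since the other 4 VWF cultures, at 13.1 to 15.3 CPM, lay above every LPS culture. Without it the difference was 0.50 ± 0.14 (adjusted p = 0.01397), under the fold limit. F630028O10Rik was higher with VWF than with LPS at both times (2.03 ± 0.20 and 2.04 ± 0.27, adjusted p = 1.222e-05 and 0.0001025). At 16 h Pvt1 (1.79 ± 0.17), Mir17hg (1.47 ± 0.39), Lockd (2.68 ± 0.35), 2810455O05Rik (3.84 ± 0.48) and Gm5086 (5.97 ± 0.84) were also higher with VWF. Replicate numbers of VWF and LPS cultures at 16 h moved together (correlations of 0.50, 0.18, 0.84 and 0.81), and with the number as a block 47 genes were called in place of 48.

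Averaged over all 28 cultures, the highest levels per exon length belonged to Gm10076 (1713 TPM), AW112010 (1399), 4930430E12Rik (129), Gm36161 (129), Mir142hg (98.5), 1810058I24Rik (91.5), Gm26917 (80.9), Gm13822 (76.8), Neat1 (75.9) and 2900097C17Rik (70.5). This order pools unlike groups: AW112010 was first in both LPS groups and Gm10076 in the other 4. Several of these share sequence with other genes, where counting can split or misplace reads. Of 100-base windows in GENCODE transcripts, 29.5% of those of Gm10076 were identical to Rpl41, the gene of a ribosomal protein, 42.1% of those of Gm36161 to Gm21188, and 30.1% of those of 2900097C17Rik to Gm7292. Gm26917 ends 12 bp before an annotated ribosomal RNA gene on chromosome 17, and that gene had 554 CPM in control replicate 5 at 16 h, where the other controls had 457 to 554 CPM. In all, 6 of the 107 genes had more than 10% of their windows in transcripts from elsewhere. Gm36161 rose with both treatments, from 21.8 to 33.3 CPM in 3.5 h controls to 91.3, 126, 134, 125 and 92.9 CPM with VWF and to 84.9, 81.6, 107 and 98.2 CPM with LPS, so that treated groups overlapped each other and not the controls (2.03 ± 0.14 and 1.72 ± 0.13). At 16 h the values were 2.40 ± 0.13 and 1.92 ± 0.15. Gm26917 rose with LPS at 3.5 h (1.37 ± 0.28, adjusted p = 0.001399, and 0.80 and not called with library size alone). At 16 h its fold change with VWF was -0.47 ± 0.63, and 0.64 without control replicate 5. The ribosomal RNA gene beside it ranged from 365 to 1040 CPM in 3.5 h controls and from 684 to 1340 CPM with LPS. Its part in the values of Gm26917 was not tested. Gm10076 and 1810058I24Rik were called in no treatment comparison.

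Untreated cultures changed with time as well. Between 3.5 h and 16 h in buffer 8 genes rose and 13 fell (4.78% and 4.94% of all genes tested). Mir17hg fell (-1.16 ± 0.24, and -0.99 without control replicate 1 at 3.5 h), as did Snhg12 (-1.17 ± 0.18) and 4930430E12Rik (-1.34 ± 0.26). Mir17hg would have missed the level without the 3.5 h controls, so its fall is a description. Mir155hg went from 32 counts to 2 over the 5 cultures of each time. The test of the difference between times called 14 genes higher and 9 lower for VWF (5.79% and 8.19% of all genes), and 21 higher and 12 lower for LPS (13.7% and 13.5%). With library size alone the VWF split was 19 and 7 (7.29% and 6.69% of all genes).

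Exons of 33 of the 107 genes overlapped exons of a coding gene, 31 on the opposite strand and 2, Gm20707 and Gm49797, on the same strand. Whether counting used the strand is not given in the sources used here, so reads over such stretches may belong to either gene. Chosen after their values were seen, the largest overlaps stood at Gm37787 and Gm17201. The overlap covered 72.3% of the exonic bases of Gm37787 (with Slamf7), 59.5% of Gm17201 (with Ankrd52), 33.0% of Gm45606 (with Slc43a2), 24% of Gm26674 (with Sash1), 18.6% of Gm45752 (with Dpep2 and Dpep3) and 11% of Gm13822 (with Oasl1). Among the 74 genes without overlap, 11 rose and 14 fell with VWF at 3.5 h, and 22 rose and 15 fell with LPS at 16 h, where 8.74% and 5.89%, and 14.1% and 13.9%, of all genes did. Among the 33 with overlap the counts were 5 and 2, and 10 and 5.

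Gm13822 starts 37 bp from the start of Oasl1, an interferon-induced gene of antiviral defence. It met the level through treated cultures only, so its differences from controls are descriptions. It rose from 0.102 to 0.277 CPM in 3.5 h controls to 2.66, 4.86, 7.40, 10.7 and 2.19 CPM with VWF and to 35.6, 19.3, 25.2 and 28.2 CPM with LPS (4.88 ± 0.50 and 7.17 ± 0.27). The groups did not overlap. The 16 h VWF cultures held 1.80 to 5.46 CPM and LPS cultures 23.1 to 115 CPM, against 0.0317 to 0.670 CPM in controls (3.77 ± 0.60 and 7.80 ± 0.78, and 4.43 and 8.45 without control replicate 5). Oasl1 moved from 3.06 CPM in 3.5 h controls to 532 with VWF and 2614 with LPS, and at 16 h from 4.92 to 87.2 and 3019. The VWF response of Oasl1 shrank with time (log2 interaction -3.27), while for Gm13822 the interaction, also a description, was -1.08 ± 0.78 (-0.41 without control replicate 5).

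Each gene had its own nearest coding gene, and 78 of these 107 neighbours met the level limit. Across the 30 pairs whose starts lay within 5 kb, the log2 fold changes of the noncoding gene and its neighbour correlated with Pearson's r of 0.70 for VWF and 0.80 for LPS at 3.5 h, and 0.72 and 0.80 at 16 h. Spearman's rho was 0.73, 0.80, 0.34 and 0.68. For the 48 pairs farther apart, r was 0.39, 0.39, 0.24 and 0.41 and rho 0.57, 0.46, 0.25 and 0.53. These describe genes within the same libraries, near pairs can share reads where they overlap, and no test was made. Some coding neighbours moved much less: Mir155hg rose by 8.20 with VWF at 3.5 h while Mrpl39 rose by 1.21 ± 0.08, and Neat1 fell by 2.26 on the log2 scale while Frmd8 was at -0.20 and not called.

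**Figure D5:**
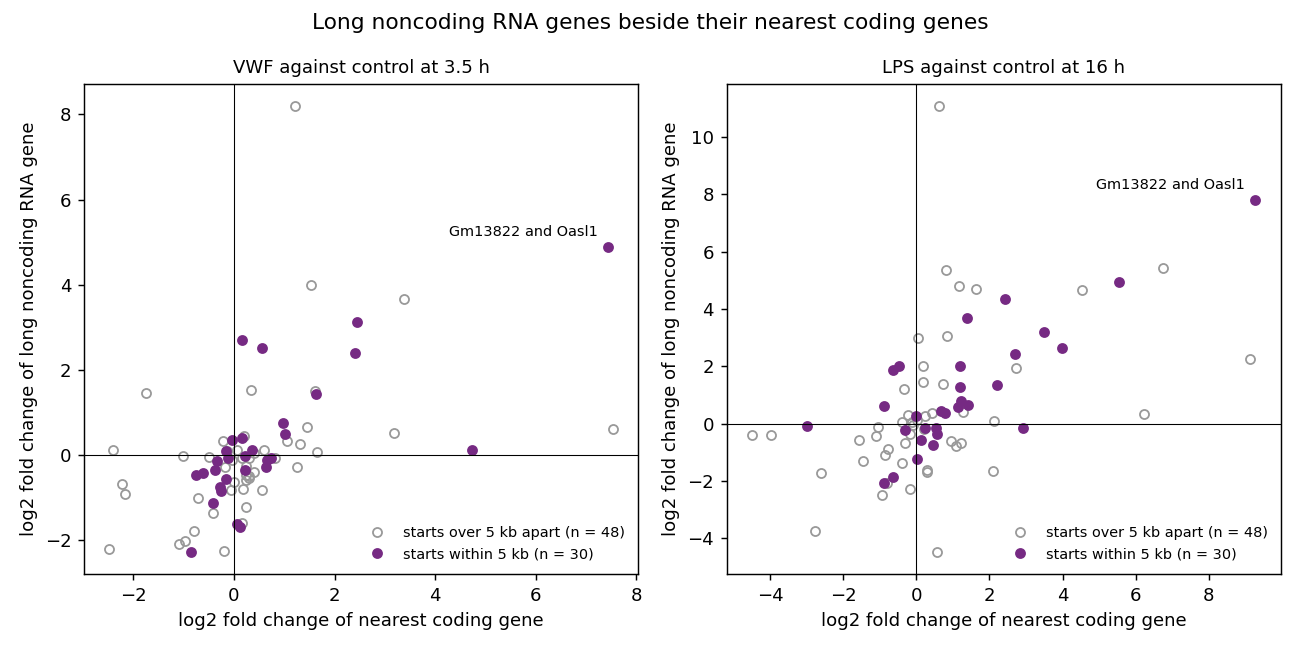
Log2 fold change of each long noncoding RNA gene against that of its nearest coding gene, for VWF at 3.5 h (left) and LPS at 16 h (right), with 30 pairs whose starts lie within 5 kb (filled) and 48 farther apart (open). Gm13822 and Oasl1 lie at the upper right of the filled points in both panels, and a gene far from its neighbour, Mir155hg, has the highest value on the vertical axis.

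Markers of other cells were checked beside these results. T, B and NK cell markers summed to at most 0.560 CPM in any culture, erythroid markers to at most 0.0453 CPM, and mast cell and basophil markers to at most 3.09 CPM. Of the 4 dendritic cell markers, Flt3 and Cd209a stayed below 1 CPM in every group, but the sum was 22.3 to 28.1 CPM with LPS and 13.0 to 19.6 CPM with VWF at 3.5 h, against 1.22 to 1.76 CPM in controls, and 13.0 to 31.5 CPM with LPS at 16 h, against 0.652 to 2.09 CPM in controls and 0.901 to 2.65 CPM with VWF. Stromal and endothelial markers ranged from 6.68 to 192 CPM over the cultures, and neutrophil markers from 4.64 to 37.4 CPM, with Ly6g, Elane and Mpo below 1 CPM in every group. The platelet markers, Pf4 among them, summed to 273 to 1340 CPM, while Gp9 stayed below 1 CPM. Their part in the changes above was not tested. In bulk RNA, fewer cells of a kind and less RNA per cell cannot be told apart.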

How the data were processed

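RNA from 28 macrophage cultures was sequenced as paired-end 150 bp reads on an Illumina NovaSeq instrument. The authors aligned and quantified reads with STAR on GRCm38/mm10 and deposited raw read counts per gene. No source used here gives the annotation, strand setting or treatment of reads with several matches. Gene types, exon lengths and coordinates came from GENCODE M21 (54495 of 54532 IDs matched). TPM was computed from counts and union exon lengths. The members and lists were chosen with earlier results of these data known.

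Each of the 9 comparisons was fitted on its own groups in edgeR 4.0.16 (R 4.3.3; robust quasi-likelihood, TMM), over the 10317 genes at 5 CPM in at least 4 cultures, with adjusted p below 0.05 and an absolute log2 fold change above 1. The plus or minus values are approximate standard errors, the absolute log2 fold change divided by the square root of the test's F statistic. DESeq2 1.42.0, other scalings, filters, a replicate block and leaving out each culture were alternatives. Fits were tested on simulated data. Named genes were list members, the 3 largest changes per direction and comparison without overlap, the 3 largest interactions, the 10 highest TPM and coding neighbours. AI504432, Gm37787 and Gm17201 were added after their values were seen. The labels do not say what a replicate number marks. Among groups compared with each other, same-numbered cultures all correlated above 0.1 for VWF and LPS at 16 h only. LPS at 3.5 h and VWF at 16 h, which are not compared, did so too (0.17 to 0.31). Mouse promoter and microRNA sequences are from RefSeq (GRCm38.p6; 58 of the 107 genes matched). Low-count intervals and floors of 3 counts cover counting error only.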

Additional observations from a re-analysis of the deposited data

Results flagged for a closer look

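Among the named genes, 148 sets of 4 or 5 cultures of a group were examined, and in 25 the highest or lowest culture lay far from its group by Dixon's limit. Chance alone gives about 1 in 20. Control replicate 5 at 16 h was high for Pvt1 (6.92 against 4.29 to 5.01 CPM), Mir142hg (30.9 against 5.25 to 9.21 CPM), Snhg20 (63 against 9.84 to 13 CPM), Epb41l4aos (25.2 against 6.13 to 7.92 CPM), 2810455O05Rik (6.88 against 1.7 to 2.3 CPM), Lockd (22.1 against 4.61 to 5.44 CPM), Gm10076 (706 against 172 to 215 CPM), 1810058I24Rik (143 against 83.6 to 95.9 CPM) and Gm26917 (444 against 52.4 to 74.8 CPM). It was low for Malat1 (35.4 against 79.4 to 92.2 CPM), 2900097C17Rik (72.6 against 117 to 130 CPM), Gm30329 (3.64 against 5.32 to 5.65 CPM) and 4930430E12Rik (5.77 against 15.9 to 18.5 CPM).

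VWF replicate 4 at 16 h was high for Mir142hg (15 against 5.14 to 7.85 CPM), Snhg6 (38.5 against 21.5 to 26.3 CPM), Snhg20 (25.8 against 8.61 to 13.4 CPM), Epb41l4aos (13.5 against 5.68 to 7.06 CPM), Gm45606 (6.34 against 4.38 to 4.91 CPM), 1810058I24Rik (108 against 78.7 to 85.6 CPM) and Gm26917 (195 against 61.2 to 81.4 CPM). LPS replicate 4 at 16 h was high for Gm26674 (20.1 against 7.92 to 9.81 CPM) and Gm26917 (470 against 64.1 to 123 CPM). Single sets also stood out for LPS replicate 3 at 16 h, with Gm47336 (7.07 against 11.3 to 12 CPM), for LPS replicate 1 at 3.5 h, with Ptgs2os2 (5.07 against 5.69 to 5.81 CPM), and for VWF replicate 1 at 3.5 h, with Neat1 (387 against 144 to 195 CPM).

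The response to VWF differed between 3.5 h and 16 h, by edgeR's test of the interaction on the log2 scale, for Gm11707 (4.45 ± 0.70), Gm26674 (3.12 ± 0.40) and Ptgs2os2 (-2.99 ± 0.71, adjusted p = 0.00261). The response to LPS differed between times for Gm32089 (7.71 ± 0.59), A630012P03Rik (6.73 ± 1.66) and Gm5086 (-5.83 ± 0.74). Gm11707, Gm32089 and A630012P03Rik met the level only through the 16 h group in which they were high, so their values are descriptions. Gm26674 met it through treated groups at 16 h only and Gm5086 through controls only, so their values are descriptions too. A630012P03Rik had 3 counts in the 3.5 h controls, all in replicate 1, and 0 in the 16 h controls, so its fitted value depends on the prior count and is no bound. Without that culture no usable estimate was obtained and the gene was not called.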

How the results depend on the processing

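The counts of long noncoding genes called kept within 1.5 times under DESeq2, other scalings, the low-count filters at or below 5 CPM, the wider set of noncoding types and a fit of all 6 groups, and no call of a named gene reversed. Of 134 called results of named genes, 113 held under every alternative and 21 were lost in some. Counts are ordered as the responses to VWF and to LPS and their direct comparison at 3.5 h, the same 3 at 16 h, control over time, and the time interactions of VWF and LPS. They were 32, 52, 29, 26, 52, 48, 21, 23 and 33. With genes required to reach 10 CPM they were 15, 22, 12, 15, 25, 17, 10, 10 and 14. With a filter of 10 TPM the first 8 were 21, 30, 15, 15, 32, 27, 12 and 15. These filters test fewer genes. With the adjusted p alone, VWF against control and against LPS at 3.5 h gave 52 and 49, control over time 43 and the VWF interaction 36. Without genes that overlap coding exons, VWF against LPS at 3.5 h gave 19.

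Leaving out each culture gave 30 to 33, 50 to 54, 26 to 28, 23 to 29, 48 to 55, 46 to 50, 19 to 25, 21 to 28 and 29 to 38 in the same order, with the highest of the last 2 without control replicate 5 at 16 h. Leaving out the 3 cultures that stood apart together, chosen after seeing the data, gave 28, 53, 50, 25, 25 and 37 for the 6 comparisons that use 16 h cultures. The replicate number as a block gave 30, 50, 25, 24, 53, 47, 19, 21 and 34. Among the groups compared, same-numbered cultures all correlated above 0.1 for VWF and LPS at 16 h only, at 0.18 to 0.84. In the other comparisons the cultures share only a number. With the block Snhg20 became called for VWF against LPS at 16 h, at 1.2. In the other comparisons the block lost Snhg20 for VWF at 3.5 h (-0.98), Gm11707 and Gm47336 for LPS at 3.5 h (-2.15 and 2.81), Gm26917 for VWF against LPS at 3.5 h (-0.84) and A630012P03Rik for VWF at 16 h, and it gained the LPS interaction of Mir155hg (2.5). The block changed no other call of a named gene, and the cause was not tested. Depth limits genes such as Mir155hg and A630012P03Rik, with 2 and 0 counts over the 16 h controls.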
